A study of Mus musculus with 30 samples.

Results

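The 10 core circadian clock genes were measured in the livers of 30 mice by 18 of the 41174 gene probes on a single-colour oligonucleotide array (Agilent whole mouse genome, 4x44K). Members were all non-control probes that the array files name Arntl, Clock, Npas2, Cry1, Cry2, Per1, Per2, Per3, Nr1d1 or Nr1d2, and all 18 passed the filter on dim probes. Where a gene had several probes, the one with the highest mean level stood for it among the 21087 genes tested. Each array held the liver RNA of 1 mouse, and every mouse carried its own animal code, so replicates were separate animals. The groups were DBA/2 (D2) mice on an iron-deficient, an iron-balanced or an iron-enriched diet and C57BL/6 (B6) mice on the same 3 diets, with 5 mice in each of the 6 groups. The diets held less than 3 mg of iron per kg (deficient), 200 mg per kg (balanced) and 8.3 g per kg (enriched). The labels give no genetic change other than the strain and no agent other than the diet. The hour of death is not given in the sources used here, nor are sex, age and how long the diets were fed. The series was made to ask which liver genes follow the iron stores.

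The molecular clock of a liver cell is a feedback loop of transcription. ARNTL (also called BMAL1) pairs with CLOCK or its relative NPAS2 and switches on genes that carry E-boxes, among them the Per and Cry genes. The PER and CRY proteins build up and hold that pair back, which closes the loop once a day. NR1D1 and NR1D2 (REV-ERB alpha and beta) are nuclear receptors that bind heme, the iron-containing cofactor, and hold back Arntl, Clock, Npas2 and Cry1 through a site called the RORE. In mouse liver the transcripts of Arntl and Npas2 run through the day nearly opposite to those of Nr1d1 and Per3. A single sample per mouse therefore catches each gene at 1 point of its cycle.

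The promoter windows of 4 members that stood far apart between the strains or moved together over mice are shown with the clock motifs found in them in capitals. They come from RefSeq (build GRCm38.p6), run from 250 bases before to 50 bases after a transcript start, and are read 5′ to 3′ on the gene's own strand. The motifs searched on both strands were CACGTG (E-box), CACGTT (a variant, the E′-box), TTATGTAA (D-box), TTATGCAA (a variant of the D-box), TAGGTCA (RORE) and TGACGTCA (cAMP response element). Over all 32851 mouse windows of this length 7.15% held the E-box, 4.68% the E′-box, 0.938% the D-box, 0.743% its variant, 2.61% the RORE and 1.79% the cAMP response element. No printed motif overlaps another. AACGTG is the E′-box read from the other strand.
Arntl (1 of its 2 windows), chr7:113207261-113207560, plus strand, with a RORE that begins at base 281: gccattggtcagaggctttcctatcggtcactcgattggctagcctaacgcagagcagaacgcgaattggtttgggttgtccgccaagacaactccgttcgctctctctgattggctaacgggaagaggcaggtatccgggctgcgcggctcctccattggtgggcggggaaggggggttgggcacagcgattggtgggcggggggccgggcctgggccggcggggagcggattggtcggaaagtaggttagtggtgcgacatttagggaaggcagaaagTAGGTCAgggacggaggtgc
Cry1, chr10:85185005-85185304, minus strand, with an E′-box at base 172 and an E-box at base 191: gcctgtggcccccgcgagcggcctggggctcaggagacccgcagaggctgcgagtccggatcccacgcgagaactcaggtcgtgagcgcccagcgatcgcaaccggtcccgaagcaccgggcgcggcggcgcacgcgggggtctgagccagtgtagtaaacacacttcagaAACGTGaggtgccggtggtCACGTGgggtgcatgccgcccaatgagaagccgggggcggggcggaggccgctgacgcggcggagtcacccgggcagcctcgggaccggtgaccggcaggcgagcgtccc
Per3, chr4:151044616-151044915, minus strand, with D-boxes at bases 46 and 93: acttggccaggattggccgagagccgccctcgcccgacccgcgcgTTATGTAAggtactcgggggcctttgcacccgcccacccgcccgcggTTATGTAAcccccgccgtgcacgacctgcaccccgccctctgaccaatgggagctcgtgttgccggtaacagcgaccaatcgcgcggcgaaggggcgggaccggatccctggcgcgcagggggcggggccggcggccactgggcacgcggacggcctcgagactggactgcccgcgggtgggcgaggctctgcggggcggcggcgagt
Nr1d1, chr11:98775328-98775627, minus strand, with an E′-box at base 223: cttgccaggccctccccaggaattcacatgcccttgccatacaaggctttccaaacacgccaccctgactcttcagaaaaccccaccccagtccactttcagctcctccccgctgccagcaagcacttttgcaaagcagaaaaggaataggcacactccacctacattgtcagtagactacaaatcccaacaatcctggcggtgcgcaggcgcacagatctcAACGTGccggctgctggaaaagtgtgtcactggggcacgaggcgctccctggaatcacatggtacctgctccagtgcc
Of the 9 members with a window in the table, Per1 also held an E-box and the D-box variant, and Cry2 an E′-box. The windows of Clock, Npas2 and Nr1d2 held none of these motifs and are not shown, though these members also differed between the strains and moved with others over mice. A match is a description of the sequence only.

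The strains stood apart in 9 of the 10 clock genes, 5 of them higher and 4 lower in D2 than in B6 over the 3 diets. The same test (limma, adjusted p under 0.05) was passed by 50.1% of all genes, 25.9% higher and 24.2% lower. The genes of the activating arm, Arntl, Npas2 and Clock, were lower in D2, as was Cry1. Per3, Nr1d1, Nr1d2, Per2 and Cry2 were higher. Per1 did not pass. The median size of the difference was 1.21 on the log2 scale over the 10 members and 0.21 over all genes. Levels are log2 of the quantile-normalized signal, so 1 unit is a 2-fold difference, and levels of different probes are not set against each other. With no hour of death given, a level difference between strain or diet groups cannot be told apart from one in cycle timing.

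Arntl, the partner shared by CLOCK and NPAS2, had a lowest, median and highest level of 7.02, 8.24 and 10.35 in the 15 D2 mice, against 9.49, 11.22 and 11.70 in the 15 B6 mice. The strains met only at their edges, where 1 iron-deficient D2 mouse lay above the lowest B6 mouse on the balanced diet. Group means were 8.99 ± 0.81, 8.01 ± 0.82 and 8.18 ± 0.22 in D2 mice on the deficient, balanced and enriched diets, against 11.25 ± 0.29, 10.55 ± 0.64 and 11.56 ± 0.08 in B6 mice (SD, n = 5 each). Averaged over diets Arntl was 6.62-fold lower in D2 (log2 change -2.73 ± 0.20 SE, adjusted p = 4.09e-12). Clock, whose protein binds ARNTL, ran from 10.79 over a median of 11.10 to 11.48 in D2 mice, against 11.56, 11.95 and 12.20 in B6 mice, with no overlap. Its means were 11.36 ± 0.15, 11.04 ± 0.26 and 11.04 ± 0.12 in D2 mice on the deficient, balanced and enriched diets and 11.99 ± 0.15, 11.85 ± 0.23 and 11.95 ± 0.11 in B6 mice (SD, n = 5 each). The difference was small, 1.72-fold lower in D2 (-0.79 ± 0.07, adjusted p = 7.52e-11).

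Npas2, which can take the place of CLOCK, was dim: its probe was marked well above background on 3 of 15 D2 arrays and on 13 of 15 B6 arrays. Its levels were 3.80, 3.91 and 4.87 (lowest, median, highest) in D2 mice, against 3.80, 5.47 and 6.25 in B6 mice, where 3.80 is the floor set for low signals and holds 7 mice. Its group means were 4.35 ± 0.34, 3.91 ± 0.20 and 3.90 ± 0.16 in D2 mice on the deficient, balanced and enriched diets, against 5.29 ± 0.89, 4.42 ± 0.60 and 5.79 ± 0.23 in B6 mice (SD, n = 5 each). No D2 mouse on the balanced diet was well above background, so that mean is only a bound. The enriched D2 mean is limited in the same way, with 1 mouse well above background and 3 at the floor. Of the deficient D2 mice 2 were well above background. With values at the floor taken as they stand, Npas2 was lower in D2 by -1.12 ± 0.17 (adjusted p = 3e-06). Cry1, a repressor of the ARNTL pair, spanned 5.69, 6.27 and 7.06 in D2 mice, against 6.91, 8.40 and 9.29 in B6 mice, and the highest D2 mouse only just passed the lowest B6 mouse. Its means were 6.11 ± 0.26, 6.41 ± 0.38 and 6.52 ± 0.35 in D2 mice on the deficient, balanced and enriched diets, against 8.53 ± 0.78, 7.88 ± 0.81 and 8.70 ± 0.51 in B6 mice (SD, n = 5 each). Cry1 was 4.07-fold lower in D2 (-2.02 ± 0.20, adjusted p = 1.44e-09).

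Per3, a member of the Period family, showed the largest difference of the 10 genes. Its lowest, median and highest levels were 9.30, 10.57 and 10.96 in D2 mice, against 5.05, 6.16 and 8.0 in B6 mice, so every D2 mouse lay above every B6 mouse. The group means were 10.11 ± 0.56, 10.60 ± 0.19 and 10.64 ± 0.24 in D2 mice on the deficient, balanced and enriched diets, against 6.58 ± 1.28, 7.01 ± 0.86 and 6.10 ± 0.54 in B6 mice (SD, n = 5 each). Per3 was 14.8-fold higher in D2 (3.89 ± 0.25, adjusted p = 3.88e-13). Nr1d1, the heme-binding repressor, had levels of 9.08, 9.95 and 10.60 in D2 mice, against 4.89, 6.30 and 9.81 in B6 mice, which spread much more. Its means were 10.20 ± 0.33, 9.89 ± 0.46 and 9.89 ± 0.52 in D2 mice on the deficient, balanced and enriched diets, against 5.77 ± 0.96, 7.92 ± 1.48 and 5.99 ± 0.88 in B6 mice (SD, n = 5 each). It was 10.8-fold higher in D2 (3.44 ± 0.30, adjusted p = 2.27e-10).

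Nr1d2, the second REV-ERB, lay at 11.81, 12.24 and 12.43 (lowest, median, highest) in D2 mice, against 10.20, 10.93 and 11.92 in B6 mice, with an overlap at the edge. The group means were 12.08 ± 0.16, 12.25 ± 0.19 and 12.31 ± 0.08 in D2 mice on the deficient, balanced and enriched diets, against 10.88 ± 0.53, 11.56 ± 0.31 and 10.48 ± 0.27 in B6 mice (SD, n = 5 each). It was 2.36-fold higher in D2 (1.24 ± 0.11, adjusted p = 1.14e-10). Per2, a PER repressor, lay at 8.76, 10.40 and 11.24 in D2 mice, against 7.90, 8.98 and 10.49 in B6 mice, and the strains overlapped widely. The means were 9.83 ± 0.69, 10.79 ± 0.45 and 10.48 ± 0.46 in D2 mice on the deficient, balanced and enriched diets, against 9.46 ± 1.02, 9.36 ± 0.66 and 8.73 ± 0.41 in B6 mice (SD, n = 5 each). Per2 was 2.27-fold higher in D2 (1.18 ± 0.23, adjusted p = 8.28e-05).

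Cry2, a repressor like Cry1 but opposite to it in direction between the strains, lay at 10.84, 11.03 and 11.40 in D2 mice, against 9.56, 10.16 and 10.88 in B6 mice. Its means were 10.98 ± 0.13, 11.17 ± 0.22 and 11.10 ± 0.09 in D2 mice on the deficient, balanced and enriched diets, against 10.14 ± 0.49, 10.45 ± 0.31 and 10.03 ± 0.30 in B6 mice (SD, n = 5 each). The difference was 1.84-fold (0.88 ± 0.10, adjusted p = 4.6e-08). Per1, the Period gene that many acute signals induce, spanned 10.03, 11.74 and 12.28 in D2 mice, against 10.32, 11.37 and 11.61 in B6 mice. The means were 11.38 ± 0.79, 11.75 ± 0.35 and 11.40 ± 0.56 in D2 mice on the deficient, balanced and enriched diets, against 11.33 ± 0.36, 11.34 ± 0.20 and 11.16 ± 0.50 in B6 mice (SD, n = 5 each). Its difference of 0.23 (95% interval -0.13 to 0.59, adjusted p = 0.286) did not pass. Without mouse 1 of the deficient D2 group, its lowest mouse, it was 0.34 and passed (adjusted p = 0.0493). Sorted by mean, the 3 groups of a strain stood next to each other for every member. This includes Per1, where the balanced B6 mean of 11.34 lay just below the deficient D2 mean of 11.38. How many of all genes sort this way was not counted. Neighbouring groups overlapped in range everywhere except at the step between the strains for Clock and for Per3. The ranges of all 15 D2 and all 15 B6 mice did not overlap for these 2 members, as for 7.15% of all genes.

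**Figure D1:**
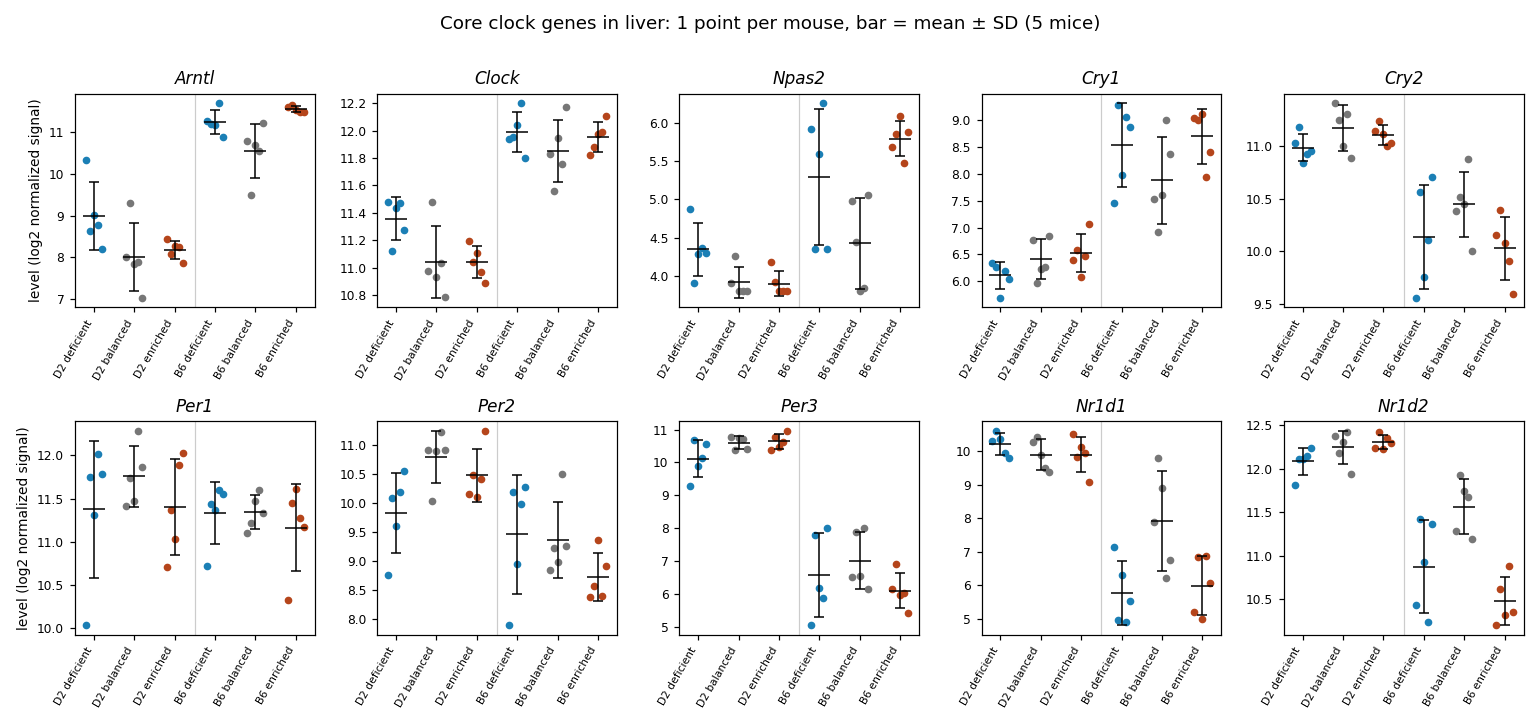
Level of each core clock gene (log2 normalized signal, vertical axis, 1 scale per gene) in every mouse by strain and diet, with D2 groups left of B6 groups and the mean ± SD of 5 mice as a bar. Arntl, Clock, Npas2 and Cry1 sit lower in D2 mice, Per3, Nr1d1 and Nr1d2 sit higher, and Nr1d1 spreads over several units within B6 groups.

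The probes of a gene did not all give the same difference. Arntl, Npas2, Per1, Per3 and Nr1d2 had 1 probe each, so no second probe could be set beside theirs. The 4 Clock probes were all lower in D2, by -0.79 to -1.17, and the second Cry1 probe (A_51_P302204) by -1.85 against -2.02 for the first. The second Cry2 probe (A_51_P135542) was higher in D2 by 0.40 against 0.88. For Nr1d1 the result rests on A_51_P223776: A_52_P130952 was higher in D2 by 0.67, while A_52_P130961 differed by -0.06 ± 0.18 (SE, adjusted p = 0.807). For A_52_P130961 the group means ran from 7.22 to 7.48 in D2 and from 7.30 to 7.55 in B6, so the strains lay on top of each other. The second Per2 probe (A_52_P536869) had group means of 7.93 to 8.05 in D2 and of 8.08 to 8.24 in B6 and a difference of -0.16 ± 0.11 (SE, adjusted p = 0.268), against 1.18 for the first. Over the 30 mice, with group means removed, the 2 other Nr1d1 probes correlated with the first at r = 0.23 and -0.20, the second Per2 probe at -0.19 and the second Cry1 probe at 0.91. Which of the differing probes measures the main transcript was not tested, and neither was whether the strains differ in sequence under a probe.

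**Figure D2:**
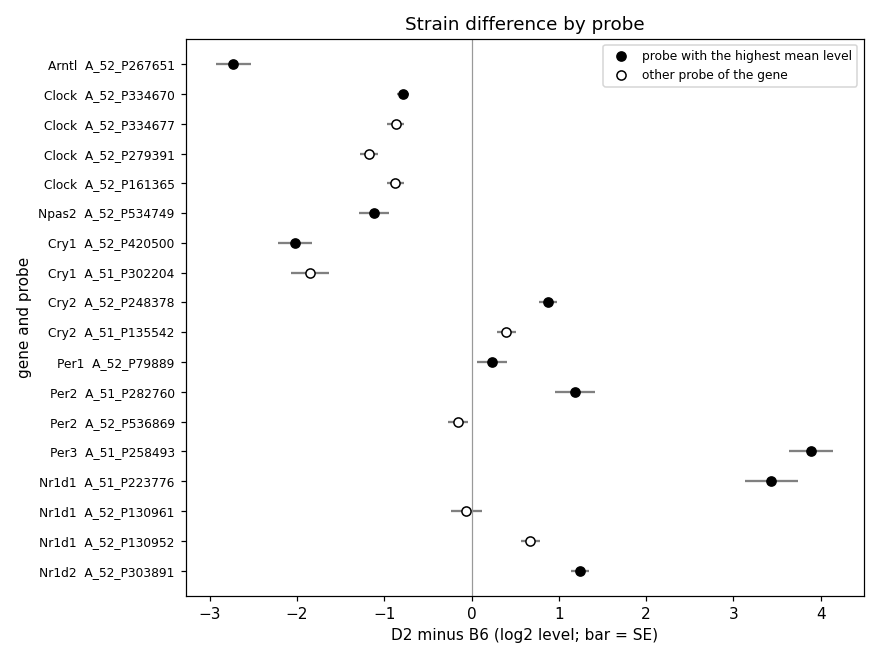
Difference in level between D2 and B6 mice (log2, horizontal axis, bar = SE, 15 mice a strain) for each of the 18 clock gene probes, with D2 higher to the right of 0. The probes of Clock and Cry1 lie together, while those of Nr1d1 run from -0.06 to 3.44 and those of Per2 from -0.16 to 1.18.

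Arrays were read on 3 scan days, with 4 D2 and 1 B6 arrays on day 1, 6 D2 and 5 B6 on day 2 and 5 D2 and 9 B6 on day 3. Within days 2 and 3 alone the difference was -2.86 and -2.75 for Arntl, 3.78 and 3.64 for Per3, 3.29 and 3.48 for Nr1d1, -2.22 and -1.91 for Cry1, and 1.32 and 1.09 for Nr1d2. It was -0.71 and -0.80 for Clock, -1.37 and -0.98 for Npas2, 0.77 and 0.85 for Cry2, and 1.31 and 0.98 for Per2, whose value within day 3 did not pass (adjusted p = 0.0799). Markers of other liver cells also differed between the strains: all 5 Kupffer cell markers and all 5 endothelial markers were lower in D2, and 2 of 5 stellate cell markers were higher. Also lower in D2 were 2 of 4 cholangiocyte and 1 of 4 lymphocyte markers, and 1 of 2 erythroid markers was higher. Over all genes 25.9% were higher and 24.2% lower. The summed signal of the Kupffer markers ran from 25555 to 40977 in D2 mice and from 42525 to 92854 in B6 mice, and that of the endothelial markers from 18890 to 23435 in D2 mice and from 21901 to 29738 in B6 mice. The summed stellate markers ran from 18760 to 47055 in D2 mice and from 26041 to 44969 in B6 mice. None of these markers was at 0. Their part in the clock gene differences was not tested, and fewer cells of a type and less RNA per cell cannot be told apart in whole liver. Of the 6 hepatocyte markers 2 were higher and 2 lower in D2, and Alb was well above background on all 30 arrays.

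On the iron-enriched diet clock genes of B6 mice passed the test against the balanced diet, and none did in D2 mice. In B6, 3 of 10 members passed: Npas2 rose, and both REV-ERB genes, Nr1d1 and Nr1d2, fell. Of all genes 5.9% passed there, 3.35% higher and 2.55% lower. In D2, 0 of 10 passed in limma (changes of -0.35 to 0.17), 0 had an unadjusted p under 0.05, and 0.0901% of all genes passed. Averaged over the strains 1 member passed, Nr1d2, which was lower, where 2.24% of all genes passed and 1.03% were lower. The median size of the change was 0.86 over the members and 0.14 over all genes in B6, and 0.06 over the members and 0.10 over all genes in D2.

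Nr1d2 stood at 10.20, 10.62, 10.32, 10.88 and 10.35 in the 5 enriched B6 mice, against 11.28, 11.92, 11.75, 11.67 and 11.20 in the 5 balanced B6 mice. Every enriched mouse lay below every balanced mouse, and the level was 2.13-fold lower (-1.09 ± 0.18, adjusted p = 0.000403). In D2 it stood at 12.24, 12.43, 12.23, 12.35 and 12.29 in enriched mice, against 12.37, 12.18, 12.31, 12.42 and 11.94 in balanced mice, and the ranges overlapped (0.06 ± 0.18, adjusted p = 1). The enrichment effect on Nr1d2 differed between the strains by 1.15 ± 0.26 (D2 minus B6, adjusted p = 0.0252), a test that 1.11% of all genes passed, 0.427% with D2 higher, and no other member. The same difference was -1.38 for Npas2 (adjusted p = 0.111), whose D2 means lie near the floor, and 1.92 for Nr1d1 (adjusted p = 0.255). For these genes the strains are thus not shown to respond unequally. For Nr1d2 it was lost without mouse 2 of the enriched D2 group (1.12, adjusted p = 0.0508). The averaged effect was -0.51 ± 0.13 (adjusted p = 0.0301).

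Nr1d1 stood at 5.19, 6.84, 5.01, 6.86 and 6.07 in enriched B6 mice, against 7.90, 9.81, 8.91, 6.22 and 6.75 in balanced B6 mice. The groups overlapped, since 2 balanced mice lay as low as enriched ones, and the mean fell by 1.92 ± 0.52 on the log2 scale (adjusted p = 0.0258). This fall is that of probe A_51_P223776. Means of balanced and enriched B6 mice were 7.01 and 6.79 for A_52_P130952. For A_52_P130961 they were 7.32 and 7.55, the opposite direction. Npas2 stood at 5.68, 5.85, 6.09, 5.47 and 5.88 in enriched B6 mice, against 4.97, 4.45, 3.80, 3.85 and 5.06 in balanced B6 mice, of which 3 were well above background. All enriched mice lay higher, by a fitted 1.37 ± 0.29 (adjusted p = 0.00437). Arntl stood at 11.61, 11.66, 11.54, 11.50 and 11.48 in enriched B6 mice, against 10.80, 9.49, 10.69, 10.56 and 11.22 in balanced B6 mice. Its ranges did not overlap either, but its difference of 1.01 ± 0.34 did not pass (adjusted p = 0.0836). It did pass in the fits without mouse 1 of the deficient or mouse 2 of the balanced D2 group, which leave the B6 values as they are (adjusted p = 0.0387 and 0.0435). Non-overlapping ranges of enriched and balanced B6 mice were seen in these 3 members, Nr1d2, Npas2 and Arntl, and in 5.74% of all genes, while 0 members and 1.42% of all genes did so in D2. Cry1 stood at 9.05, 9.01, 9.11, 7.94 and 8.40 in enriched B6 mice, against 7.53, 6.91, 7.61, 9.01 and 8.36 in balanced B6 mice. Its groups overlapped through mouse 4 of each, and without that balanced mouse the difference was 1.10 and passed (adjusted p = 0.049). The other B6 differences were 0.82 for Cry1 over all mice, -0.42 for Cry2, -0.91 for Per3, -0.63 for Per2, -0.18 for Per1 and 0.10 for Clock, with adjusted p between 0.184 and 0.848.

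With scan day as a block the B6 calls stayed: -1.06 for Nr1d2, -1.90 for Nr1d1 and 1.30 for Npas2 (adjusted p = 0.032 for Nr1d1, the highest). With slide as a block the averaged Nr1d2 effect was -0.47 (adjusted p = 0.183) and its difference between the strains 1.16 (adjusted p = 0.0913), and neither passed. In that fit Nr1d1 in B6 did not pass (-1.72, adjusted p = 0.0806), and with the mean of its 3 probes it was -0.64 (adjusted p = 0.107). The Nr1d1 call passed in 10 of 18 alternatives besides leaving out single mice. It was also lost with no normalization between arrays (-1.83, adjusted p = 0.053), with only the groups compared (adjusted p = 0.22), without mouse 1 of each group (-1.73, adjusted p = 0.107) and without scan day 1 (-1.67, adjusted p = 0.108). Within scan day 3, with 4 enriched and 3 balanced B6 mice, the differences were -1.16 for Nr1d2, -1.81 for Nr1d1 and 1.33 for Npas2, and none passed (adjusted p = 0.063, 0.344 and 0.124). Scan day 2 held 1 mouse of each of these groups and gave -0.66, -1.06 and 0.87. The averaged Nr1d2 effect was lost in 10 of the 30 fits that left out 1 mouse (adjusted p up to 0.0582), and the Nr1d1 effect in B6 in 5 of 30, namely without mice 2 or 3 of the balanced group (-1.45 and -1.67) or mice 1, 3 or 5 of the enriched group (-1.72, -1.68 and -1.94), with adjusted p up to 0.0864. The averaged Nr1d2 effect ran from -0.47 to -0.51 in the fits that lost it, which left out mice 2, 3 or 4 of the balanced B6 group, 1, 3 or 5 of the enriched B6 group, 1, 3 or 4 of the balanced D2 group or 3 of the enriched D2 group. Of the marker lists, 1 of 4 cholangiocyte and 1 of 5 endothelial markers were higher and 1 of 6 hepatocyte and 1 of 2 erythroid markers lower on the enriched diet in B6. Their part in the clock gene changes was not tested.

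On the iron-deficient diet 2 of 10 members passed averaged over the strains, Arntl higher and Nr1d2 lower, where 8.11% of all genes passed, 3.9% higher and 4.22% lower. The same balanced mice serve as the comparison for both diets, so the enrichment and deficiency effects share their error. In B6, Nr1d1 and Nr1d2 fell, 2 of 10, where 1.79% of all genes passed and 0.683% were lower. Both had also fallen on the enriched diet, so the opposite diets lay on the same side of the balanced B6 mice. Means on the deficient, balanced and enriched diets were 5.77, 7.92 and 5.99 for Nr1d1 and 10.88, 11.56 and 10.48 for Nr1d2. Whether the balanced B6 group itself was shifted was not tested. In D2, 0 of 10 members passed in limma, where 4.69% of all genes did, and 3 had an unadjusted p under 0.05. The deficiency effect differed between the strains in 0 of 10 members, with 1 at an unadjusted p under 0.05, and in 0.019% of all genes. The ranges of deficient and balanced mice overlapped in every member in both strains, and did not overlap in 6.5% of all genes in D2 and 2.7% in B6. The median size of the change was 0.35 over the members and 0.13 over all genes in D2, and 0.54 over the members and 0.12 over all genes in B6.

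Arntl stood at 10.35, 8.64, 9.02, 8.77 and 8.19 in deficient D2 mice, against 8.01, 9.29, 7.83, 7.88 and 7.02 in balanced D2 mice, and the ranges overlapped. In deficient B6 mice it stood at 11.28, 11.21, 11.17, 11.70 and 10.90. The difference was 0.98 ± 0.34 in D2 (adjusted p = 0.101), 0.70 ± 0.34 in B6 (adjusted p = 0.396) and 0.84 ± 0.24 averaged (adjusted p = 0.0284). Within scan days 2 and 3 the averaged value was 0.28 and 1.74, and with slide as a block 0.92 (adjusted p = 0.0586). It was lost without mouse 1 of the deficient D2 group (0.67), mouse 5 of the balanced D2 group (0.72), mouse 4 of the deficient B6 group (0.79) or mouse 2 of the balanced B6 group (0.71), with adjusted p up to 0.0628. Clock, the partner of Arntl, stood at 11.48, 11.12, 11.44, 11.47 and 11.28 in deficient D2 mice, against 10.98, 11.48, 10.93, 11.04 and 10.79 in balanced D2 mice, a difference of 0.32 ± 0.11 (adjusted p = 0.113). Mouse 2 was the highest of the balanced D2 group for both Arntl and Clock, and without it both differences passed, 1.30 for Arntl (adjusted p = 0.0182) and 0.43 for Clock (adjusted p = 0.0187).

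Nr1d1 stood at 7.15, 4.97, 6.30, 4.89 and 5.54 in deficient B6 mice, which overlapped the balanced range and lay lower by a mean of -2.15 ± 0.52 (adjusted p = 0.0296). It rests on 1 probe: A_52_P130952 and A_52_P130961 differed by -0.44 and -0.01 and did not pass, and the mean of the 3 probes differed by -0.87 (adjusted p = 0.0479). This was lost with slide as a block (-1.68, adjusted p = 0.304) and in 5 of 30 fits without 1 mouse, those without mice 2, 4 or 5 of the deficient group (-1.95, -1.93 and -2.09) or mice 2 or 3 of the balanced group (-1.67 and -1.90). Its D2 levels were 10.30, 10.60, 10.37, 9.95 and 9.80 in deficient mice, against 10.28, 10.42, 9.87, 9.50 and 9.38 in balanced mice, a difference of 0.31 ± 0.52 (adjusted p = 0.874). Nr1d2 stood at 10.43, 11.42, 10.93, 10.24 and 11.36 in deficient B6 mice, a difference of -0.69 ± 0.18 (adjusted p = 0.0478) that passed in only 7 of 30 fits without 1 mouse. Averaged over strains Nr1d2 differed by -0.43 ± 0.13 (adjusted p = 0.0395), which passed in 17 of 30 such fits. Both lay near the threshold, with adjusted p up to 0.166 and 0.0813. Of 5 stellate cell markers 3 were higher on the deficient diet over both strains, with a summed signal of 37851 to 47055 in deficient and 18760 to 38320 in balanced D2 mice, and of 36987 to 44969 in deficient and 26041 to 32727 in balanced B6 mice. Over both strains 2 of 5 endothelial markers were also higher and 1 of 2 erythroid markers lower, while 0 of the hepatocyte, Kupffer, cholangiocyte and lymphocyte markers passed in limma (3 before adjustment, p under 0.05). The summed endothelial markers ran from 19905 to 23411 in deficient and from 18890 to 21203 in balanced D2 mice, and from 24012 to 27758 in deficient and from 21901 to 27729 in balanced B6 mice. The 2 summed erythroid markers ran from 28125 to 39878 in deficient and from 33546 to 49382 in balanced D2 mice, and from 19195 to 35712 in deficient and from 31558 to 55182 in balanced B6 mice. Their part in the clock gene changes was not tested.

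Per2 stood at 8.76, 10.09, 9.59, 10.18 and 10.54 in deficient D2 mice, against 10.90, 10.03, 10.90, 11.22 and 10.91 in balanced D2 mice, with mouse 2 alone of the balanced group inside the deficient range. Its difference of -0.96 ± 0.40 did not pass (adjusted p = 0.183), and in B6 it was 0.10 ± 0.40 (adjusted p = 0.96). Npas2 stood at 5.92, 4.36, 5.60, 6.25 and 4.35 in deficient B6 mice, all of them well above background, a difference of 0.87 ± 0.29 from balanced B6 mice (adjusted p = 0.151). Averaged over the strains Npas2 differed by 0.65 ± 0.21 (adjusted p = 0.0507). Cry1 differed by -0.31 in D2 and 0.65 in B6, Cry2 by -0.19 and -0.31, Per1 by -0.38 and -0.01, and Per3 by -0.49 and -0.43, and none passed in either strain.

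**Figure D3:**
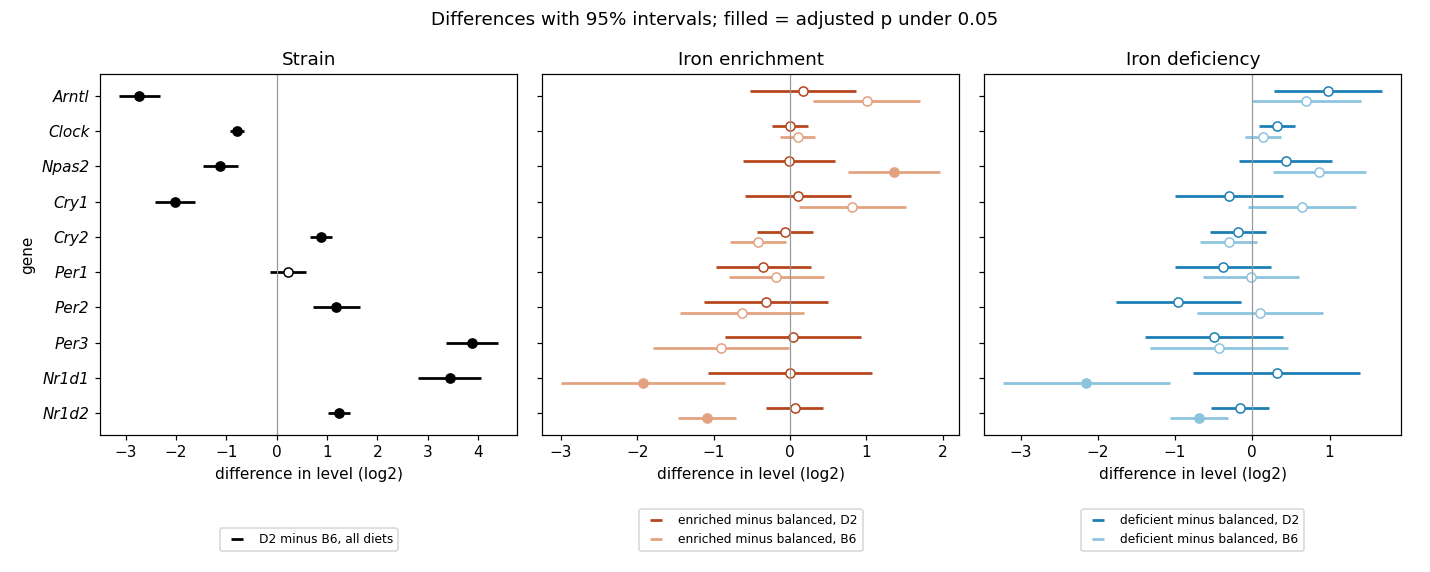
Differences in level of each clock gene (log2, horizontal axis; points with 95% intervals; filled where the adjusted p is under 0.05) between D2 and B6 mice over all diets, between iron-enriched and balanced mice, and between iron-deficient and balanced mice of each strain. The strain differences reach 3.89 in size, and the diet differences that pass within a strain are all in B6.

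Mice of the same strain and diet also differed from each other, and pairs of clock genes moved together in these differences. The deficient B6 group shows it: Per3 stood at 5.05, 7.80, 6.16, 5.88 and 8.0 in mice 1 to 5, and Nr1d2 at 10.43, 11.42, 10.93, 10.24 and 11.36 in the same mice. Mice 2 and 5, the highest for both, were the lowest for Npas2, with 4.36 and 4.35 against 5.60 to 6.25 in the others. The group mean was taken from each level, and Pearson's r of what was left was computed over the 30 mice for all 45 pairs of members. Permutation p values are printed below for the named pairs only. They come from the same 30 mice as the slope test and were not adjusted over the 45 pairs. Each gene was also tested for a slope on each member beside the 6 group means, over all 20748 other genes with complete values. Slope p values were adjusted over these genes for 1 member at a time, and a pair is named where it passed in both directions. In that test 0.0771% of genes passed with Arntl, 0.00482% with Clock, 0.304% with Npas2, 0.313% with Cry1, 0.631% with Cry2, 2.37% with Per1, 1.12% with Per2, 0.66% with Per3, 0.0868% with Nr1d1 and 0.0193% with Nr1d2. Of the 45 pairs 9 passed in both directions, 6 positive and 3 negative. This count was 2, 3 and 3 without mice 5, 1 or 2 of the deficient B6 group, and from 6 to 10 without any other mouse. The median size of r was 0.40 over the 45 pairs, while over all genes it ran from 0.14 to 0.23 depending on the member.

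Among positive pairs, Arntl and Clock, the dimer partners, had r = 0.78 and rho = 0.67 (permutation p = 5e-05 and 0.00017; adjusted slope p = 0.0362 and 0.0203). This r was 0.79 within D2 and 0.80 within B6, and the 2 mice farthest out were mouse 1 of the deficient and mouse 2 of the balanced D2 group. Clock was the only member that passed with Arntl, and Arntl the only gene of all that passed with Clock. Cry2 and Per3 had r = 0.81 and rho = 0.68 (permutation p = 6e-05 and 0.00057; adjusted slope p = 0.00135 and 0.0055), with 0.22 within D2 and 0.91 within B6, a difference between strains that was not tested. Per3 and Nr1d2 had r = 0.77 and rho = 0.72 (permutation p = 0.00169 and 0.00075), with 0.70 within D2 and 0.78 within B6. For these 3 pairs r without the 2 mice farthest from the median of the first gene was 0.76, 0.72 and 0.70. With the other Clock probes Arntl had a lower r, of 0.68 (A_52_P334677), 0.56 (A_52_P279391) and 0.41 (A_52_P161365). With the second Cry2 probe (A_51_P135542) Per3 had r = 0.32, and the 2 Cry2 probes had r = 0.44 with each other.

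Per2 took part in the other 3 positive pairs. It had r = 0.68 with Per1 (rho = 0.66, permutation p = 2e-05 and 8e-05), 0.67 with Cry1 (rho = 0.67, p by permutation 0.00073 and 0.00082) and 0.67 with Per3 (rho = 0.61, p by permutation 0.00211 and 0.0038). Without the 2 farthest mice these became 0.64, 0.44 and 0.47, with the larger drops for Cry1 and Per3. Within scan day 2 (8 mice of groups with several on that day) Per1 and Per2 had r = -0.14, and within day 3 (13 mice) r = 0.70. All 3 rest on the Per2 probe A_51_P282760: with the other Per2 probe r was -0.32 with Per1, 0.08 with Cry1 and -0.38 with Per3.

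The 3 negative pairs set Cry1 or Npas2 against a REV-ERB gene or Per3. Cry1 and Nr1d1 had r = -0.82 and rho = -0.77 (permutation p = 7e-05 and 0.00013; adjusted slope p = 0.00455 and 0.00199), with -0.48 within D2 and -0.88 within B6. Cry1 was the only gene with a negative slope on Nr1d1 that passed (0.00482% of all genes). With the second Cry1 probe r was -0.77, while the Nr1d1 probes A_52_P130952 and A_52_P130961 gave -0.22 and 0.13 with Cry1. Npas2 and Nr1d2 had r = -0.80 and rho = -0.63 (permutation p = 0.00075 and 0.00544), with -0.42 within D2 and -0.86 within B6. Npas2 and Per3 had r = -0.75 and rho = -0.66 (permutation p = 0.00536 and 0.00403), with -0.77 within D2 and -0.75 within B6. The floor holds 7 of the Npas2 values, which limits what its r can show in D2. Without the 2 farthest mice the 3 negative values were -0.72, -0.71 and -0.70. For all 9 pairs the adjusted slope p was at most 0.0463 in both directions. Within scan days 2 and 3 alone r was 0.98 and 0.70 for Arntl and Clock, 0.78 and 0.91 for Cry2 and Per3, 0.86 and 0.83 for Per3 and Nr1d2, 0.83 and 0.69 for Cry1 and Per2, and 0.58 and 0.74 for Per2 and Per3. It was -0.71 and -0.96 for Cry1 and Nr1d1, -0.95 and -0.83 for Npas2 and Nr1d2, and -0.96 and -0.91 for Npas2 and Per3, so Per1 and Per2 was the only pair whose sign turned within a day. No pair passed the slope test within 1 day or 1 strain alone. With slide as a block r was between 0.64 and 0.86 in size for the 9 pairs, but 0 of 45 passed both ways.

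Some pairs that the loop links did not pass. Arntl had r = -0.08 with Nr1d1 (0.57 within D2 and -0.53 within B6) and -0.39 with Nr1d2 (-0.29 and -0.61). With Cry1 it had r = 0.07 (-0.34 within D2 and 0.41 within B6). The sign of r with Arntl thus turned between the strains for Nr1d1 and also for Cry1, a difference that was not tested. Nr1d1 and Nr1d2 had r = 0.22 with each other. Cry1 and Cry2 had r = 0.51, and Per2 and Nr1d1 had r = -0.65, which passed in 1 direction only (adjusted slope p = 0.0855 and 0.0326).

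**Figure D4:**
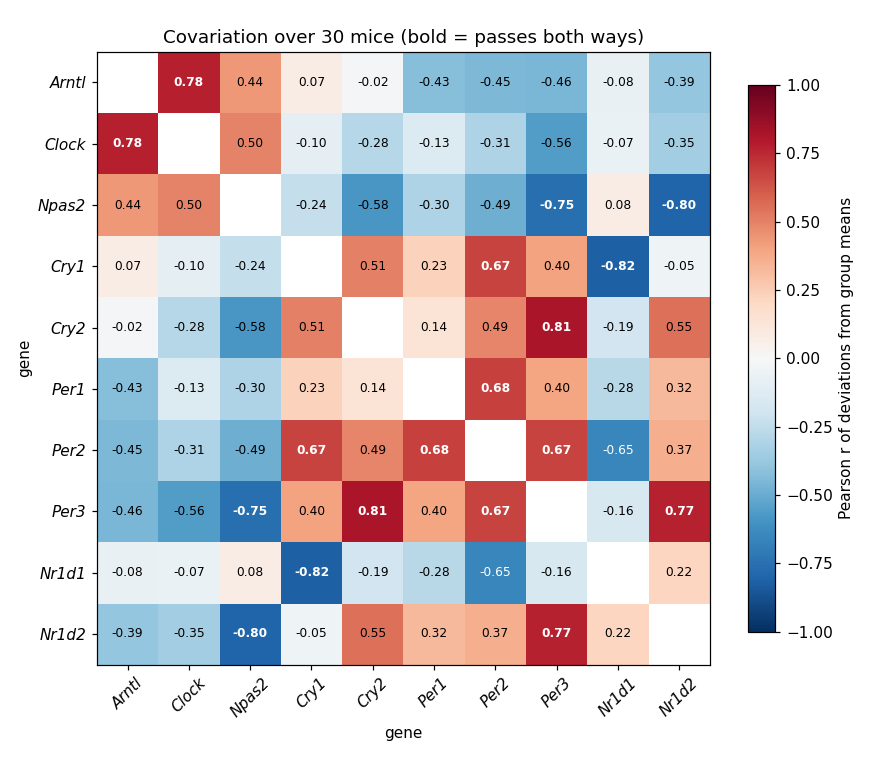
Pearson r of deviations from group means over 30 mice for all 45 pairs of core clock genes (colour scale from -1 to 1; bold where the slope test passed in both directions). Arntl and Clock form a positive pair, Per3 stands with Cry2, Per2 and Nr1d2, and Npas2 and Nr1d1 carry the strong negative values.

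**Figure D5:**
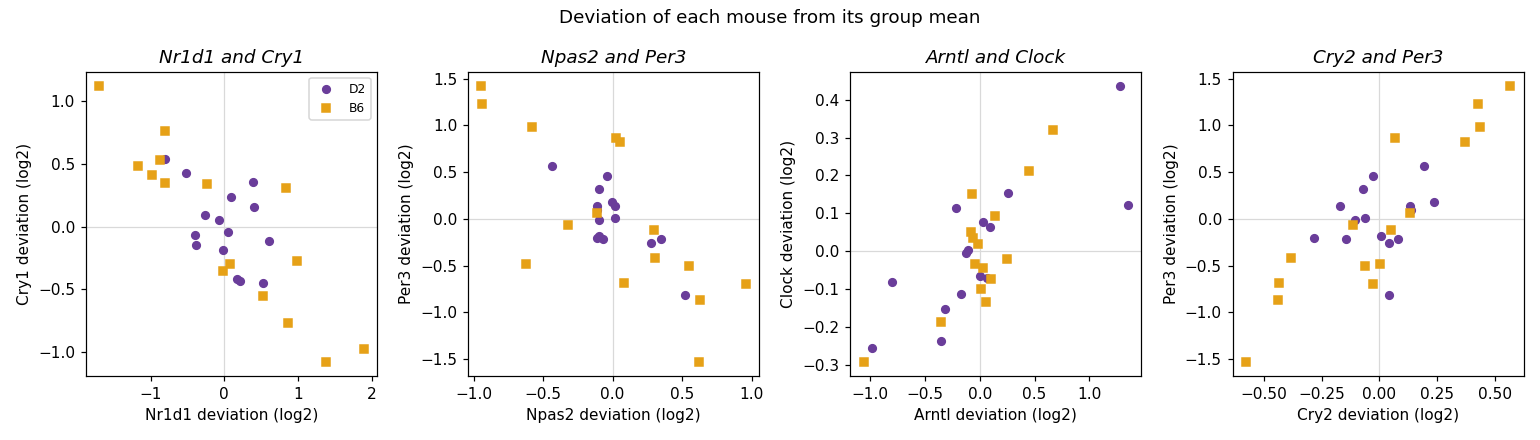
Deviation of each of the 30 mice from its group mean (log2) for 4 pairs of clock genes, with D2 mice as circles and B6 mice as squares. The B6 mice span most of the range in 3 of the 4 pairs, with r of -0.82 for Nr1d1 and Cry1, -0.75 for Npas2 and Per3, 0.78 for Arntl and Clock and 0.81 for Cry2 and Per3.

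Outside the members, the genes whose level followed Arntl most closely over the 30 mice were Ddc (the decarboxylase of aromatic amino acids, r = 0.84), Lrfn3 (0.83), Asap2 (0.81), Lgalsl (0.78) and Abtb2 (0.78), which all passed (adjusted slope p up to 0.0107). The most opposite were Lefty1 (an inhibitor of Nodal signalling, r = -0.72, adjusted p = 0.0454), Slc5a6 (-0.71), Ppat (-0.69), Efhd2 (-0.67) and Dock9 (-0.67), and only Lefty1 passed among these. For the other members except Cry1 the closest and the most opposite genes were Plekha1 (0.78) and Ntpcr (-0.75) for Clock and S100a10 (0.89) and Ngef (-0.80) for Npas2. For Cry1 the most opposite gene was Aqp9 (-0.79). For the others they were Afmid (0.81) and Snrpa (-0.80) for Cry2, Noct (0.93) and P140 (-0.75) for Per1, and Usp2 (0.87) and Coq8a (-0.82) for Per2. They were Tef (0.89) and S100a10 (-0.80) for Per3, Trip6 (0.81) and Wasf1 (-0.69) for Nr1d1, and Tef (0.79) and Ihpk2 (-0.75) for Nr1d2. Plekha1, Ntpcr and Wasf1 did not pass the slope test (adjusted p = 0.0784, 0.134 and 0.0652). These r describe likeness over the same 30 arrays, from which the genes were picked as the extremes of all genes.

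Beyond the core loop, of 9 clock output factors tested, 4 were higher and 2 lower in D2: Dbp (4.18), Tef (1.26) and Hlf (0.97), the PAR bZIP factors that bind D-boxes, and Wee1 (2.11), a kinase of the cell cycle, were higher, while Nfil3 (-0.97), which competes for D-boxes, and Por (-0.34) were lower (adjusted p up to 0.000157). Nfil3 and Por are named after their values were seen. These counts stand beside 25.9% higher and 24.2% lower over all genes. The median change over the list was 0.05 and over all genes -0.01. Of 21 regulators tested (23 listed) 8 were higher and 2 lower in D2, with a median of 0.06, a share in all close to the 50.1% of all genes that passed. Csnk1e (1.32), a kinase that marks PER proteins, and Fbxl21 (0.99), which tags CRY proteins, were higher, as was Btrc (0.52), which tags PER proteins, while Cipc (-0.47), a repressor of CLOCK, was lower. On the enriched diet in B6, 2 of the 9 output factors fell, Dbp by 1.61 and Tef by 0.68 (adjusted p = 0.00749 and 0.0283), where 2.55% of all genes were lower, and 0 of 9 passed in D2 in limma (0 before adjustment). Over mice, Tef moved with Per3 (r = 0.89), Nr1d2 (0.79) and Cry2 (0.70) and against Npas2 (-0.76), and Dbp moved with Per3 (0.76) and against Npas2 (-0.68). Noct moved with Per1 (0.93) and Per2 (0.72), and Wee1 with Per3 (0.84), Cry2 (0.73) and Per2 (0.72). Of the heme-linked genes Alas1, the rate-limiting enzyme of heme synthesis, moved with Per1 (0.69) and passed with no other member. Of the 7 heme and REV-ERB linked genes 1 was higher and 3 lower in D2, with a median of -0.27, again where 50.1% of all genes passed. Of 7 glucocorticoid-linked genes tested (8 listed) 2 were higher and 4 lower in D2, with a median of -0.75. That list holds Nr3c1, the gene of the glucocorticoid receptor, beside genes that glucocorticoids induce. As a check on the diets, Bmp6, whose product signals iron stores, changed by 1.20 on the enriched and -1.07 on the deficient diet over both strains, and Hamp, which encodes hepcidin, differed by 1.90 (adjusted p = 0.102) and -10.30. Tfrc, the transferrin receptor, changed by -1.48 on the enriched and 2.51 on the deficient diet.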

How the data were processed

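Liver RNA of 30 mice was measured on single-colour Agilent arrays, 1 array per mouse. The authors deposited scanner intensity values, extracted with Feature Extraction 9.1.3.1 per the file headers, with background subtracted and no normalization between arrays. The deposited value table equals the processed signal of the array files. Control and outlier-marked spots were left out, spots of a probe averaged, arrays quantile-normalized as the series' design text says, signals below 13.9 set to that floor and log2 taken. A probe was kept if marked well above background on at least 3 D2 and 3 B6 arrays (30006 of 41174 probes). Between 63.1% and 78.8% of gene spots per array were well above background. The number of arrays limits the precision. Probes were named through RefSeq GRCm38.p6 by accession (22951) or symbol (6659), and 11564 kept the file's name.

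Group means of 21087 genes were fitted with limma 3.58.1 (R 4.3.3), with Benjamini-Hochberg adjustment at 0.05, in place of the analysis of variance in the design text. Pairs were tested with 100000 permutations within groups, without adjustment over the pairs, and by limma slopes. On simulated data for enriched against balanced over both strains (20749 genes), 91% of log2 changes of 1 and 53.7% of changes of 0.5 were recovered. These changes were put into randomly drawn genes outside the members, each with its own spread. Recovery for the members themselves and recovery within 1 strain were not measured. Other normalizations, filters, probe rules, blocks and left-out mice were tried. Members, gene lists and the rule for named genes (all members, the genes of highest and lowest r, and up to 4 genes a list by adjusted p) were chosen with earlier results of these data known. A gene that this rule names is not reported here.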

Additional observations from a re-analysis of the deposited data

Results flagged for a closer look

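In 4 of the 60 groups of a gene, 1 mouse stood apart from the other 4 of its group by Dixon's criterion, which chance meets in about 1 of 20 groups. Npas2 was 4.26 in mouse 2 of the balanced D2 group, with the others from 3.80 to 3.91, all of them not well above background. The floor holds 3 of these values, so the chance rate does not apply to this group. Per1 was 10.71 in mouse 1 of the deficient B6 group, with the others from 11.37 to 11.60. Per2 was 10.49 in mouse 4 of the balanced B6 group, with the others from 8.84 to 9.27, and 10.03 in mouse 2 of the balanced D2 group, with the others from 10.90 to 11.22. The effect of the enriched diet on Nr1d2 differed between the strains by 1.15 (D2 minus B6), with changes of 0.06 in D2 and -1.09 in B6.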

How the results depend on the processing

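The D2 against B6 count of 9 of 10 stayed between 8 and 10 under all alternatives tried, and between 9 and 10 without any 1 mouse. The diet counts moved more. With slide as a block, 0 members passed on the enriched diet over both strains, on the deficient diet over both strains, on the deficient diet in B6 and in the strain difference of enrichment, and 0 of 45 pairs passed both ways. Within scan day 2 and within scan day 3 all of these were 0 too, as were the enriched B6 count (3 in all mice) and the pairs, except 1 member within day 3 for deficiency over both strains and 1 for deficiency in D2, and these fits hold few mice. Pairs also numbered 0 within D2 alone and 0 within B6 alone. With only the groups compared, counts were 2 for enrichment over both strains, 0 for deficiency over both strains, 0 for deficiency in B6 and 2 for the strain difference. With no normalization between arrays they were 1, 0 and 0 for deficiency over both strains, deficiency in B6 and the strain difference, with 5 pairs. For deficiency in B6 (2 in all mice) the count was 1 with 75th percentile scaling, normexp, no filter on dim probes, outlier spots kept, the mean of probes, every probe tested, scan day as a block and plain t statistics, and deficiency over both strains was 1 with no filter. Alternatives chosen after seeing the data left out mouse 1 of each group (0 for enrichment over both strains, 0 for deficiency over both strains, 1 for deficiency in B6, 0 for the strain difference, 2 pairs) or scan day 1 (0, 0, 0, 0 and 5). Without 1 mouse the counts ran from 0 to 1 for enrichment over both strains, 2 to 4 for enrichment in B6, 0 to 0 in D2, 0 to 4 for deficiency over both strains, 0 to 2 in B6, 0 to 2 in D2, 0 to 1 for the strain difference of enrichment, 0 to 0 for that of deficiency and 2 to 10 pairs. Signs turned for Cry1 and Per2 with A_51_P302204 and A_52_P536869 (r = -0.000504), Cry1 and Nr1d1 with A_52_P130961 (0.13), Per1 and Per2 within scan day 2 (-0.14) or with A_52_P536869 (-0.32), and Per2 and Per3 with A_52_P536869 (-0.38). Counts over all genes ran from 28 to 911 for enrichment over both strains (473 as reported), 16 to 1818 in B6 (1245), 0 to 886 in D2 (19), 10 to 2216 for deficiency over both strains (1711), 8 to 469 in B6 (378), 0 to 1571 in D2 (988), 6147 to 15007 between strains (10566), 16 to 907 for the strain difference of enrichment (234) and 0 to 274 for that of deficiency (4). No cause was tested. No paired analysis was possible because the labels number animals, not pairs: no number recurs between the diets of a strain, and the numbers that recur between the strains belong to different animals on different diets.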

Other observations

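Per1 was lowest in the mouse with the lowest animal code in all 6 groups: 10.03, 11.41 and 10.71 in the deficient, balanced and enriched D2 groups, and 10.71, 11.11 and 10.32 in the B6 groups. The same held for 25 of 20749 genes (0.12%), while 2 genes were highest in that mouse in every group. This was noticed after the levels were seen, and what the order of the codes stands for is not given in the sources used here.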
